A study of Mus musculus with 4 samples.

Results

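The genes of glycolysis, pyruvate handling and the TCA cycle were followed in interscapular brown adipose tissue (iBAT) and epididymal white adipose tissue (eWAT) of wild-type (WT) and ASK1-deficient mice. The list named 42 genes, and a gene was taken where its name was the gene name of a probe in the scanner files. This found 41 of the 42 genes, with 65 probes, among 22065 genes with a usable probe. Mpc1, a subunit of the mitochondrial pyruvate carrier, is not a gene name in these files, which list its probes under the older symbol Brp44l, so it is described with the related genes. There were 4 one-colour arrays, 1 for each tissue of each genotype (WT iBAT and eWAT, ASK1-deficient iBAT and eWAT). Each was hybridized with a pool of RNA from 3 males of 10 weeks. ASK1-deficient mice lack the kinase in the whole body. WT and ASK1-deficient mice were bred as separate colonies, so genotype and colony cannot be told apart, and with a single array for each condition nothing measures how mice vary.

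Glycolysis splits glucose into pyruvate in the cytosol. Pyruvate is then either reduced to lactate by lactate dehydrogenase or carried into mitochondria, where the pyruvate dehydrogenase complex turns it into acetyl-CoA for the TCA cycle. Pyruvate dehydrogenase kinases (the Pdk genes) switch the complex off and phosphatases such as Pdp1 switch it on. Brown adipocytes are packed with mitochondria and burn fatty acids and glucose for heat, whereas white adipocytes store triglyceride and use part of their glucose to make glycerol phosphate.

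Promoters of these genes were examined after the members had been seen to lie to one side of all genes in each comparison. They were searched for ACGTG, letters held by the binding sites of hypoxia-inducible factors, of which many members are textbook targets. The part of these factors in the ratios was not tested. RefSeq promoters, from 250 bases before to 50 after the start site on GRCm38.p6, were matched for 39 of the 41 genes, Idh3a and Pdp1 being the exceptions. ACGTG on either strand was present for 20 of the 39 genes, or 51.28%, beside 21.78% of 27025 genes. A gene counted if any of its promoters held the letters, and the members have more promoters for each gene. Counted by promoter, the share was 44.44% of 63 beside 19.62% of 32851. The letters were found for 6 of 8 genes from aldolase to pyruvate and for 3 of 10 matched TCA cycle genes. Members' promoters were also richer in G and C, with a median of 59.7% over 63 promoters beside 52.7% over 32851. Windows of 60 bases upstream of the start site are shown for 6 genes with a match, from the hexokinase, lower glycolysis, lactate and kinase steps, with ACGTG or its complement CACGT in capitals.
Hk2, chr6:82774474-82774533, minus strand: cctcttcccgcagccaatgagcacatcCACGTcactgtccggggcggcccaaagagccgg
Aldoa, chr7:126799348-126799407, minus strand: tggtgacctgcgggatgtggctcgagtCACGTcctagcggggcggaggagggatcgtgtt
Pgk1, chrX:106186942-106187001, plus strand: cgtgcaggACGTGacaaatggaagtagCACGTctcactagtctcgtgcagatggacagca
Pgam1, chr19:41911730-41911789, plus strand: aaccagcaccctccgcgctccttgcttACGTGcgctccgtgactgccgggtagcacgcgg
Ldha, chr7:46845743-46845802, plus strand: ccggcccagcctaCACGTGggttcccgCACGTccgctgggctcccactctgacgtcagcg
Pdk3, chrX:93832171-93832230, minus strand: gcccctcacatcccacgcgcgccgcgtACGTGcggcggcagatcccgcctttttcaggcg
Ldha had 5 matches upstream of its start site, and Pgk1 and Hk2 had 2 each. Some of the Ldha matches overlap in CACGTG, a palindrome that holds ACGTG on both strands and was present for 6 of the 39 genes, or 15.38%, beside 8.093% of all genes. TGACGTCA, the cAMP response element, was present for Ldha, Mdh2 and Ogdh, or 7.692% beside 2.031%. AAGGTCA, the element bound by the receptor Esrra, was present for Eno1, Ogdh, Pfkfb1 and Tpi1, or 10.26% beside 5.38%. Counted by promoter, the shares were 12.7% beside 7.15% for CACGTG, 7.937% beside 1.79% for TGACGTCA and 6.349% beside 4.718% for AAGGTCA. Ogdh, which has several promoters, was counted for each of these elements. These matches describe letters in the promoter and no binding was measured.

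All 65 probes gave a signal well above background on all 4 arrays, so no member entered through the tissue in which it was high. The processed signal was scaled by subtracting the array's 75th percentile on the log2 scale. This percentile was 356 to 371 in iBAT and 634 to 673 in eWAT. A level below is the scaled log2 value, and a log2 ratio is the difference of 2 levels, averaged over the probes of a gene. Where a probe was spotted repeatedly, the SD of its log2 ratio over the spots had a median of 0.060 to 0.087 in the 4 comparisons, a technical spread only. The labels were checked with Map3k5, which encodes ASK1. Between ASK1-deficient and WT, one of its probes went from a signal of 448.0 to 117 in iBAT and had a log2 ratio of -1.76 in eWAT, and the other had log2 ratios of -0.06 and -0.51. Brown adipocyte markers had a summed scaled signal of 3311 to 3947 in iBAT and 20.7 to 53.1 in eWAT. The arrays also differed in markers of other cells. All 10 skeletal muscle markers were well above background on both iBAT arrays, with a summed scaled signal of 962 to 990.1 beside 25.7 to 28.1 in eWAT. In eWAT the 7 hepatocyte markers summed to 23.8 for WT and 6.51 for ASK1-deficient mice.

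**Figure D1:**
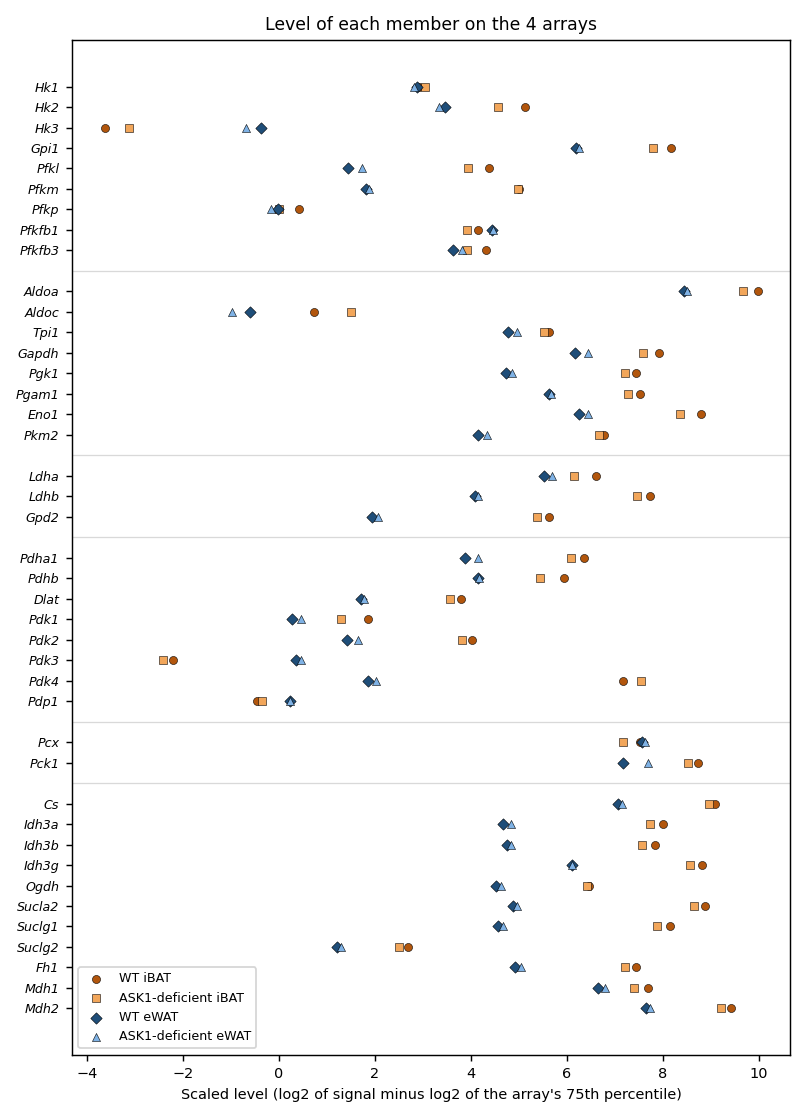
Scaled level of the 41 genes on the 4 arrays (x axis, log2 of the signal minus log2 of the array's 75th percentile), grouped by role from hexokinases at the top to the TCA cycle at the bottom, with 1 point for each array. The iBAT points lie to the right of the eWAT points for 36 of 41 genes in WT. Levels of different genes come from different probes and are not compared.

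In iBAT most of the pathway lay slightly lower in the ASK1-deficient pool. Of 41 genes, 36 had a log2 ratio below 0, beside 59.5% of the 14376 genes measured, and 5 lay above 0, beside 40.5%. The median was -0.24 for the members and -0.07 for all genes. The shift was small for each gene. No member was at least 1.5-fold lower, a size passed by 4.26% of all genes, and Aldoc alone was at least 1.5-fold higher, beside 4.52%. Both counts depended on the setting, since Hk2 and Pdk1 passed 1.5-fold downwards with median centring and in the series table, Pfkfb3 did so with the brightest probe, and Hk3 passed upwards with the 75th percentile over detected probes. None was 2-fold higher, beside 0.835%, or 2-fold lower, beside 1.02%. No test is possible within iBAT, and the median depended on the scaling, with values from -0.33 to -0.11 over the settings tried. It was -0.11 after quantile normalization, where 28 genes lay below 0, and there the median of all genes was -0.03.

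In the upper steps of glycolysis 7 of 9 genes lay below 0. Hk2, the insulin-regulated hexokinase that traps glucose in the cell, had a level of 5.13 in WT iBAT and 4.57 without ASK1, so it was 1.47-fold lower, with a log2 ratio of -0.56. A lower ratio was seen for 4.70% of all genes. Pfkl and Pfkp, phosphofructokinases that commit sugar to glycolysis, had log2 ratios of -0.45 and -0.41. Pfkfb3, which makes the activator of phosphofructokinase, had -0.41, with its probes at -0.63 and -0.19. Pfkm, the muscle form of phosphofructokinase, had -0.03. Its probe was spotted 10 times, with a median signal in iBAT of 11461 (WT) and 11627 (ASK1-deficient) and an SD of 0.028 to 0.030 on the log2 scale over the spots. Gpi1, which converts glucose 6-phosphate to fructose 6-phosphate, had -0.38 over 3 probes. Hexokinases did not move as a group, since Hk1 had 0.12 with probes of both signs and Hk3 had 0.51. The brightest probe of Hk1 had -0.02, and the files place it on another chromosome than the gene.

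Hk3, the hexokinase known from myeloid cells, was dim in iBAT, with a level of -3.63 for WT and -3.12 for ASK1-deficient mice. Its log2 ratio of 0.51 fell to 0.097 with normexp background correction and lay between 0.43 and 0.62 in the other settings. Macrophage markers moved with it, since all 8 measured were higher in ASK1-deficient iBAT, with a median log2 ratio of 0.65 and a summed scaled signal of 49.96 beside 40.07 in WT. Their part in the Hk3 value was not tested. In these bulk samples fewer cells of a type and less RNA per cell cannot be told apart.

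From aldolase to pyruvate, 7 of 8 genes lay below 0 in iBAT, with a median of -0.25, and 5 did so after quantile normalization. Eno1, the enolase of most tissues, had the lowest log2 ratio at -0.45, from a level of 8.80 in WT to 8.35. Its only probe is placed by the files on another chromosome than the gene. Gapdh, often used as a reference gene, had -0.34, and its 8 probes all lay below 0, between -0.46 and -0.18. Aldoa, the aldolase of muscle and most other tissues, had -0.30, whereas Aldoc, the aldolase best known from brain, went the other way. Aldoc had a signal of 589.9 in WT iBAT and 1048 without ASK1, which after scaling is 1.70-fold higher, and 97.9% of all genes had a lower ratio. Its log2 ratio lay between 0.68 and 0.87 over the settings. Pgk1 and Pgam1, a kinase and a mutase of the lower steps, had -0.24 and -0.25. Pkm2, the pyruvate kinase, had -0.10 and Tpi1, triose phosphate isomerase, had -0.11. Among the genes of lactate and glycerol phosphate, Ldha, which favours lactate formation, had -0.45 over 3 probes between -0.53 and -0.35. Ldhb, which favours pyruvate formation, had -0.27, and Gpd2, the mitochondrial end of the glycerol phosphate shuttle, had -0.24.

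At pyruvate dehydrogenase, the enzyme and 3 of its 4 kinases lay below 0 in iBAT. Pdk1 had the lowest log2 ratio of all members, -0.57 or 1.48-fold lower, from a level of 1.85 in WT iBAT to 1.29. Pdhb and Pdha1, the subunits of the first enzyme of the complex, had -0.49 and -0.26, and Dlat, the second enzyme, had -0.25. Pdk4, the kinase induced by fasting and fatty acids, was the kinase above 0, with a level that went from 7.16 in WT iBAT to 7.54, a log2 ratio of 0.37. Pdp1 had 0.10, with probes between -0.07 and 0.31. Pcx, which makes oxaloacetate from pyruvate, and Pck1, the enzyme of glyceroneogenesis, had -0.36 and -0.21, although Pck1 was at 0.06 after quantile normalization. In the TCA cycle all 11 genes lay below 0, in a narrow range from -0.30 for Mdh1 to -0.03 for Ogdh, with a median of -0.23, although 7 did so after quantile normalization. Brown adipocyte markers were also lower in ASK1-deficient iBAT, 9 of 10 of them, with a median of -0.32, and the general adipocyte markers had a median of -0.16, with 4 of 6 below 0. Erythrocyte markers had a median of -0.26, with 4 of 4 measured below 0. The part of these cells in the values was not tested.

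In eWAT the pathway leaned the other way by a smaller amount. Of 41 genes, 34 had a log2 ratio above 0, beside 54.2% of 15376 genes measured, and 7 lay below 0, beside 45.8%. The median was 0.09 for the members and 0.02 for all genes. No member was at least 1.5-fold higher, beside 1.38% of genes, or lower, beside 2.66%, and none reached 2-fold, beside 0.286% and 0.865%. Without scaling between arrays, the median of the members was 0.005 and that of all genes -0.07, with 23 members above 0 and 18 below. There were 28 above and 13 below with loess, and 29 and 11 with quantile normalization.

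Pck1 had the highest log2 ratio in eWAT, 0.54 or 1.45-fold higher, with a level of 7.16 for WT and 7.70 for ASK1-deficient mice, and 98.3% of all genes had a lower ratio. It lay between 0.45 and 0.56 over the settings. Pck1 is also abundant in liver, and the hepatocyte markers in eWAT had a median of -4.15, with 4 of 4 measured lower. Their part in the Pck1 value was not tested. Pfkl followed at 0.30, from a level of 1.43 in WT to 1.73, and then Gapdh and Pdha1, both at 0.28. All 8 Gapdh probes lay above 0, between 0.18 and 0.42. The 4 kinases were all above 0, with 0.09 for Pdk3, 0.16 for Pdk4, 0.20 for Pdk1 and 0.23 for Pdk2. At the low end were Aldoc at -0.38, with levels of -0.61 (WT) and -0.99 (ASK1-deficient), and Hk3 at -0.31. Macrophage markers had a median of -0.04 in eWAT. Brown adipocyte markers were lower without ASK1 in eWAT too, 7 of 9 measured, with a median of -0.83, and so were skeletal muscle markers, 8 of 9, with a median of -0.54. Erythrocyte markers had -0.20, with 4 of 4 below 0. The general adipocyte markers had a median of 0.08, with 5 of 6 above 0. The part of these cells in the eWAT values was not tested. The TCA cycle genes lay between -0.01 for Idh3g and 0.16 for Idh3a, with 10 of 11 above 0, and 8 when arrays were not scaled.

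**Figure D2:**
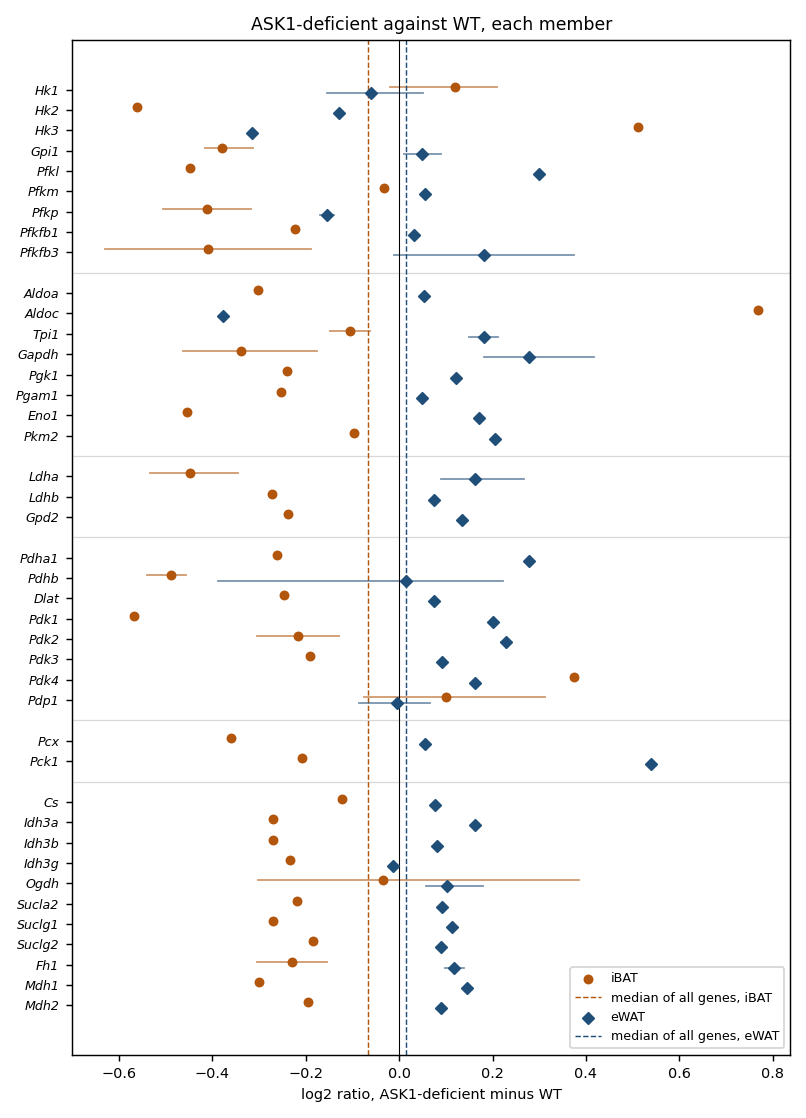
Log2 ratio of ASK1-deficient to WT (x axis) for the 41 genes in iBAT (circles) and eWAT (diamonds). Horizontal lines span the probes of genes with several probes, and dashed lines mark the medians of all genes, -0.07 in iBAT and 0.02 in eWAT. Most circles lie left of 0 and most diamonds right of it, with Aldoc, Hk1, Hk3 and Pdp1 the other way round.

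The comparisons in iBAT and in eWAT share no array, and their values were set side by side. Below 0 in iBAT and above 0 in eWAT were 33 of 41 genes, beside 32.7% of 14059 genes measured in both. Taken against the medians of all genes, 30 genes lay lower in iBAT and higher in eWAT, beside 24.6%. Aldoc, Hk1, Hk3 and Pdp1 were above 0 in iBAT and below 0 in eWAT, beside 18% of genes. The count of 33 depended on the normalization and became 21 after quantile normalization, where the share of all genes was 26.5%. It was also 21 without scaling, beside 13.9%, and 22 after loess normalization, beside 23.1%. Of named examples, Pfkl had -0.45 in iBAT and 0.30 in eWAT, Pdk1 -0.57 and 0.20, and Gapdh -0.34 and 0.28, whereas Hk2 was below 0 in both, with -0.13 in eWAT. No member was 1.5-fold higher in one tissue and 1.5-fold lower in the other, and the difference between the tissues was not tested.

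A limma model with genotype and tissue as additive terms used all 4 arrays and the 14057 genes well above background on each. Its residual has 1 degree of freedom, namely how far the genotype ratio differs from one tissue to the other, which says nothing about variation between mice. The SE and p-values also draw on a spread that limma pools over all genes, which brings the total degrees of freedom to 6.238. They do not measure precision between mice either. For genotype, no member passed a Benjamini-Hochberg adjusted p of 0.05 in limma, and neither did any other gene, which is 0% in either direction. At an unadjusted p under 0.05 there were 770 genes and 0 members. The lowest adjusted p of a member was 0.9536, for Hk2, with an estimate of -0.35 ± 0.17 (SE). A fit that takes one genotype effect for both tissues averages out ratios of opposite sign such as those of Pfkl.

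The difference between the tissues was far larger than that between genotypes. In WT, 32 of 41 genes were at least 2-fold higher in iBAT than in eWAT, beside 16.4% of 14235 genes measured, and 2 were at least 2-fold lower, beside 13.4%. In ASK1-deficient mice, on the other arrays, 28 were at least 2-fold higher, beside 12.3% of 14512 genes, and 2 lower, beside 12.6%. The lower genes were Hk3 and Pdk3 in both genotypes. The median of the members was 1.91 in WT and 1.60 in ASK1-deficient mice, while all genes had 0.12 and 0.03. In each genotype 36 genes lay above 0, beside 56.4% in WT and 51.4% in ASK1-deficient mice. The other 5, Hk3, Pcx, Pdk3, Pdp1 and Pfkfb1, lay below 0, beside 43.6% and 48.6%. In the limma fit 33 genes were higher in iBAT at an adjusted p under 0.05, beside 30.8% of genes, and Hk3, Pdk3 and Pdp1 were lower, beside 24.6%. The 5 genes that did not pass were Hk1, Pfkp, Pfkfb1, Pfkfb3 and Pcx. Without scaling between arrays, the median of all genes moved by -0.92 in WT and -0.77 in ASK1-deficient mice, and 20 members were then at least 2-fold higher in WT.

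The kinases of pyruvate dehydrogenase differed between the tissues in both directions. Pdk4 had levels of 7.16 and 7.54 in WT and ASK1-deficient iBAT and of 1.86 and 2.02 in eWAT, so both iBAT arrays lay above both eWAT arrays. It was 39.5-fold higher in iBAT of WT mice and 45.7-fold higher in iBAT of ASK1-deficient mice, with an estimate of 5.41 ± 0.15 (SE) and an adjusted p of 7.62e-06 in the limma fit. Pdk3 had levels of -2.22 and -2.41 in iBAT and 0.36 and 0.46 in eWAT, which is 5.99-fold and 7.28-fold lower in iBAT. Over the settings its log2 ratio in WT lay between -3.50 and -1.92. Its estimate was -2.72 ± 0.16 (SE), with an adjusted p of 5.352e-05 in the limma fit. Pdk2 and Pdk1 were higher in iBAT, with log2 ratios of 2.60 and 1.59 in WT. The last 30 bases of the probes behind the values of Pdk4 and Pdk3, as the scanner files give them, are shown since each gene rests on 1 probe.
Pdk4, mm9 chr6:5433441-5433500: tagatagatgctaaatgcccaggcccactt
Pdk3, mm9 chrX:91010227-91010286: gtgtctgaagtcttccagcattctgagctc
The phosphatase Pdp1 was lower in iBAT, with -0.69 in WT and -0.58 in ASK1-deficient mice over 3 probes, all below 0.

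In the TCA cycle all 11 genes were higher in iBAT in both genotypes, with a median log2 ratio of 2.51 and 2.17, except that Mdh1 fell below 0 in ASK1-deficient mice when arrays were not scaled. Sucla2, the subunit of succinyl-CoA ligase that makes ATP, stood highest, with levels of 8.87 and 8.65 in iBAT and 4.88 and 4.97 in eWAT. It was 15.9-fold higher in WT iBAT. Suclg1, the subunit shared by both forms of the ligase, had 3.59 in WT, whereas Suclg2, the subunit of the GTP-forming ligase, had 1.47. The 3 subunits of NAD-dependent isocitrate dehydrogenase lay close together in WT, at 3.33 for Idh3a, 3.08 for Idh3b and 2.69 for Idh3g. Cs, citrate synthase, had 2.01, Fh1, fumarase, had 2.51, and Mdh2, the mitochondrial malate dehydrogenase, had 1.77. Mdh1, the cytosolic form, had the smallest difference of the 11 genes, 1.05 in WT and 0.60 in ASK1-deficient mice. The pyruvate dehydrogenase subunits were of similar size, with 2.47 for Pdha1, 1.79 for Pdhb and 2.10 for Dlat in WT.

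Lactate dehydrogenases differed in size between the tissues. Ldhb had levels of 7.73 and 7.45 in iBAT and 4.08 and 4.15 in eWAT, 12.5-fold higher in WT iBAT. Ldha had 6.60 and 6.15 in iBAT and 5.52 and 5.69 in eWAT, 2.11-fold higher in WT iBAT and 0.47 on the log2 scale in ASK1-deficient mice. In the limma fit the tissue estimate was 3.48 ± 0.16 (SE) for Ldhb and 0.77 ± 0.19 for Ldha, with adjusted p of 2.81e-05 and 0.01439. Gpd2 was 12.9-fold higher in WT iBAT. Both arrays of iBAT lay above both of eWAT for each of these genes, but without scaling Ldha was lower in ASK1-deficient iBAT than in eWAT.

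Along glycolysis the isoforms parted. Pfkm and Pfkl were higher in iBAT, with log2 ratios of 3.19 and 2.95 in WT. Pfkp, the platelet form, had 0.43 and 0.17 and did not pass the limma fit, with an adjusted p of 0.1408. Hk2 was 3.18-fold higher in WT iBAT, Hk1 had 0.04, and Hk3 had levels of -3.63 and -3.12 in iBAT and -0.37 and -0.69 in eWAT, 9.57-fold lower in WT iBAT. The log2 ratio of Hk3 in WT was -3.26, and it was -1.62 with normexp background correction and -4.18 without scaling. Macrophage markers, 8 of 8 lower in WT iBAT with a median of -3.06, moved with Hk3, and their part was not tested. All 8 genes from aldolase to pyruvate were higher in iBAT in both genotypes, and 7 when arrays were not scaled, Tpi1 being the exception. They ranged in WT from 0.86 for Tpi1 to 2.72 for Pgk1, whose only probe is placed by the files on another chromosome than the gene. Pfkfb1 and Pfkfb3, which set the level of fructose 2,6-bisphosphate, had -0.29 and 0.69 in WT and did not pass the fit. The 10 skeletal muscle markers had a median of 7.23 between WT iBAT and eWAT, with all 10 above 0. Several members, Pfkm, Pdk4 and Aldoa among them, are also expressed in muscle, and the part of muscle RNA in the tissue ratios was not tested.

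**Figure D3:**
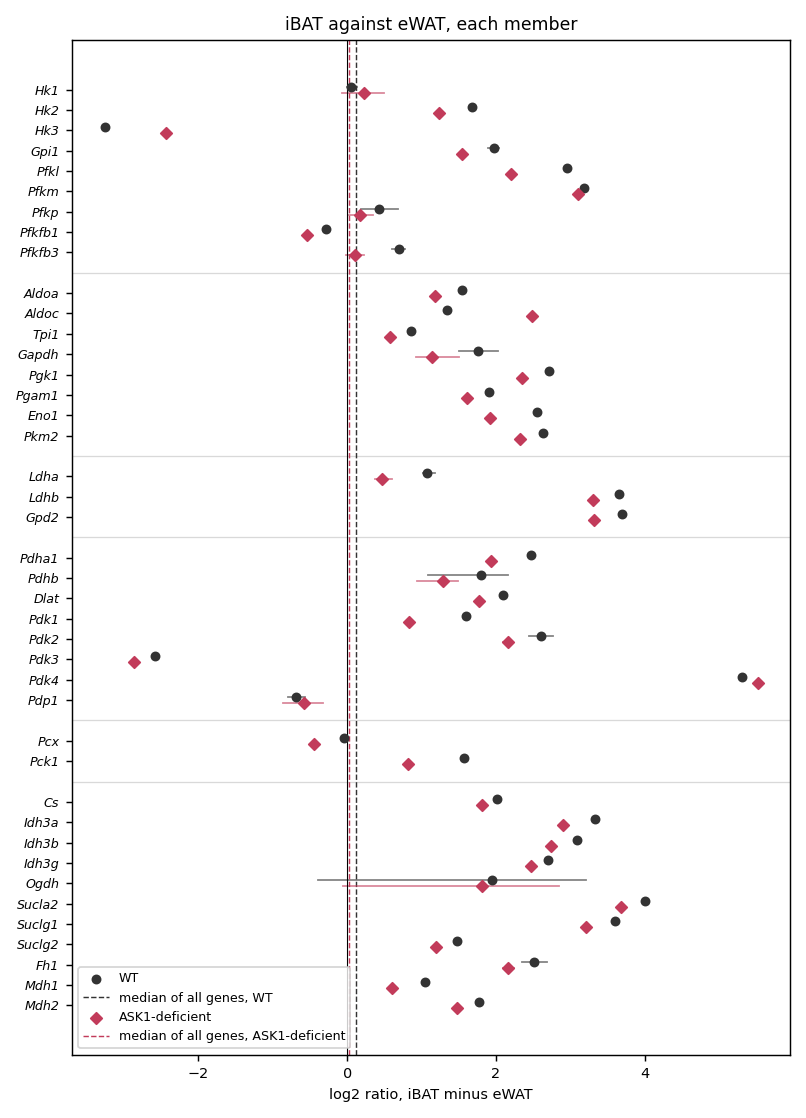
Log2 ratio of iBAT to eWAT (x axis) for the 41 genes in WT (circles) and ASK1-deficient mice (diamonds). Horizontal lines span the probes of genes with several probes, and dashed lines mark the medians of all genes, 0.12 in WT and 0.03 in ASK1-deficient mice. Pdk4 lies at 5.30 and 5.52, and Hk3 and Pdk3 lie below -2 in both genotypes.

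The 12 genes with several probes showed how far a value depends on the probe. The 3 probes of Ogdh, the first enzyme of the oxoglutarate dehydrogenase complex, fell apart. At mm9 chr11:6256511-6256570 the signal of the WT and ASK1-deficient pools was 110822 and 101557 in iBAT and 22697 and 24200.0 in eWAT. The probe at chr11:6256583-6256642 behaved alike, and between the tissues in WT the higher of the pair had a log2 ratio of 3.21. The probe at chr11:6258910-6258969 gave 2159 and 2942 in iBAT and 5341 and 5234 in eWAT, so its log2 ratio between the tissues in WT was -0.39. In iBAT it was 0.38 between the genotypes, where the others had -0.19 and -0.30. The last 30 bases of the probes, in that order, are given because the gene's mean of 1.95 in WT joins values of opposite sign.
Ogdh, mm9 chr11:6256511-6256570: acacctgatttatttattttggttaaaaaa
Ogdh, mm9 chr11:6256583-6256642: cggcttgacccataaactaagttatcatgg
Ogdh, mm9 chr11:6258910-6258969: aagatggcttagcactgactgctcttccaa
Which transcript each probe reads was not examined. Pdhb had a similar case. A probe from the cDNA AK084507, at mm9 chr14:9003605-9003664, had a log2 ratio of -0.39 between genotypes in eWAT, beside 0.21 and 0.22 at the other probes. The gene's mean was 0.02. Probe signs also differed for Hk1 and Pdp1 in both genotype comparisons and for Pfkfb3 in eWAT. The files place 6 probes on another chromosome than their gene, 3 of Gapdh and 1 each of Eno1, Hk1 and Pgk1, so these may also read related copies. Eno1 and Pgk1 have no other probe, so all their values rest on such a probe.

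**Figure D4:**
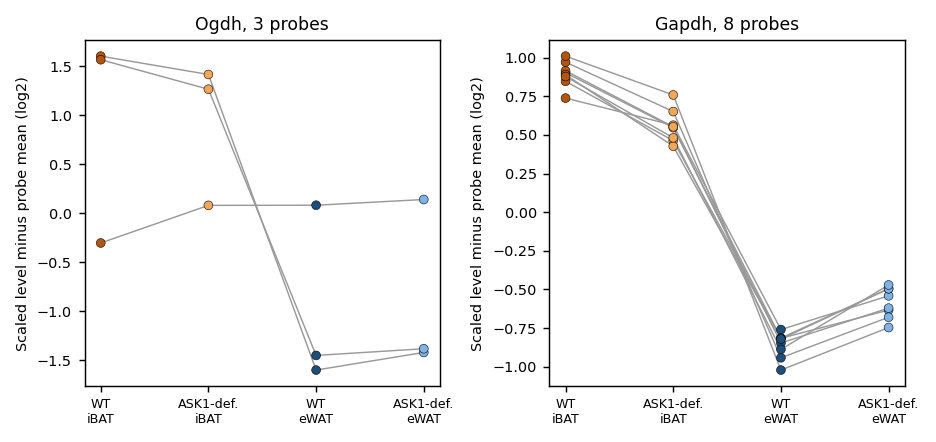
Scaled level of each probe of Ogdh and Gapdh on the 4 arrays (y axis, log2, minus the mean of that probe over the arrays), with 1 line for each probe. A single Ogdh probe goes against the other pair between the tissues, whereas all 8 Gapdh probes run alike, higher in iBAT than in eWAT.

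Further genes of the pathways were listed beside the members. Of 64 names, 59 are gene names in the files and 51 were measured in each comparison. Between genotypes in iBAT, 4 lay above the 1.5-fold limit, beside 4.52% of all genes, and 7 lay below it, beside 4.26%. These counts depended on the setting. Of the 7 lower genes, 5 were left without scaling and 4 each with the 75th percentile over detected probes, quantile normalization and loess normalization, and of the 4 higher genes 2 were left with median centring and 0 with normexp background correction. The lower genes held both subunits of the mitochondrial pyruvate carrier. Brp44, now Mpc2, gave a median signal over 10 spots of 71454 and 44249 in the WT and ASK1-deficient pools of iBAT and of 34944 and 35936 in those of eWAT. Its log2 ratio was -0.75 for iBAT and 0.12 for eWAT. Brp44l, now Mpc1, had -0.64 in iBAT, with probes at -0.69 and -0.59, and 0.25 and 0.23 at these probes in eWAT. The Brp44l value was short of 1.5-fold in iBAT under other scalings, loess among them, at -0.58 without scaling, -0.54 with the 75th percentile over detected probes and -0.46 after quantile normalization. That of Brp44 was -0.60 after quantile normalization. Slc25a1, the citrate carrier, had -0.93, Acly, which splits cytosolic citrate for fatty acid synthesis, had -0.88, and Me1, malic enzyme, had -0.61, and between -0.69 and -0.45 over the settings. Fbp2, the muscle form of fructose bisphosphatase, had -0.99 and Slc25a20, the carnitine carrier, had -0.65, and between -0.74 and -0.50. Brp44, Slc25a1, Acly and Fbp2 passed 1.5-fold in each of the 8 scalings and background corrections compared. Of the higher genes, Hif3a had 1.14, Pck2 0.65 and Eno2 0.63, and all of these were dim, with signals in WT iBAT of 21.4 to 48.6 at the probes used, which for Hif3a was 1 of 3. Each fell short of 1.5-fold with normexp.

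In eWAT 2 further genes passed 1.5-fold upwards in ASK1-deficient mice, Hif3a at 0.69 and Fbp2 at 0.63, beside 1.38% of all genes, and 3 downwards, beside 2.66%. With normexp neither of the higher genes and 2 of the lower ones passed, G6pc falling short, and Fbp2 also fell short without scaling. Fbp1, the fructose bisphosphatase of liver, went from a signal of 405 in WT eWAT to 51.9, a log2 ratio of -2.88. G6pc, the glucose 6-phosphatase of liver, had -0.86, and Slc16a3, a lactate exporter, had -0.72. Hepatocyte markers moved with Fbp1 and G6pc, as given above, and their part was not tested. Between the tissues, 25 of 51 further genes were at least 2-fold higher in iBAT in each genotype, beside 16.4% of all genes in WT and 12.3% without ASK1, and 7 were lower, beside 13.4% and 12.6%. Without scaling 20 were higher and 12 lower in WT, and 18 and 11 in ASK1-deficient mice. Pgam2, the muscle phosphoglycerate mutase, had 6.73 in WT, Me3 5.50, and Eno3, the muscle enolase, 4.07. The skeletal muscle markers, with their median of 7.23, moved with these genes, and their part was not tested. Succinate dehydrogenase genes, which complete the TCA cycle, had 2.07 for Sdha, 2.75 for Sdhb, 2.35 for Sdhc and 2.72 for Sdhd.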

How the data were processed

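RNA of iBAT and eWAT from WT and ASK1-deficient mice was measured on 4 one-colour Agilent arrays, all on 1 slide. The authors deposited Feature Extraction (10.7.3.1, protocol GE1_107_Sep09) output, whose processed signal is a linear intensity, detrended within the array and not scaled between arrays. They also deposited a table of signal values, each column being the processed signal divided by a constant that sets its median to 1. Probe positions are on mm9 per the file headers.

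Control and outlier spots were left out, log2 values were averaged over spots of a probe, and the array's 75th percentile was subtracted. The ratio of a gene averages its probes that passed the scanner software's background flag on both arrays. No test was run within a tissue or genotype. Fold sizes of 1.5 for genotype and 2 for tissue were counted. The limma fit had genotype and tissue as terms. Of 34840 gene names, 22146 matched the RefSeq gene table. The members, the further genes and the marker lists were chosen with earlier results of these data known. All members are named, and further genes where they passed the fold in a comparison, of which the text gives a part. Some genes are not reported here. Alternatives were normexp background correction (offset 50), quantile normalization, no scaling, other centrings, the series table, the brightest probe, another fold, other filters for dim probes and, as a choice made after seeing the data, loess normalization. On simulated data, 200 genes were shifted by 2 on the log2 scale. All 200 were recovered in each of the 4 comparisons, and the fit recovered 200 for tissue and called 12 unchanged genes. The simulated noise was set near the spread between repeated spots, with no variation between mice or colonies. Recovery of so large a shift was therefore fixed in advance and checks the computation only. Shifts as small as those of the members between genotypes were not simulated. The number of arrays limits the precision. Versions were R 4.3.3, limma 3.58.1, Python 3.11.15, pandas 2.3.3, numpy 2.4.6 and matplotlib 3.10.9.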

Additional observations from a re-analysis of the deposited data

How the results depend on the processing

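The direction of the members' median was the same under every alternative in all 4 comparisons, but its size was not. For ASK1-deficient against WT in iBAT, the median was -0.11 with quantile normalization, -0.14 with the 75th percentile over detected probes and -0.14 with loess normalization. There 2 members were at least 1.5-fold higher with the percentile over detected probes and 0 were at least 2-fold higher. At least 1.5-fold lower were 2 members with median centring, 2 with the series table, and 1 with the brightest probe of each gene. In eWAT the median was 0.0046 without scaling. For iBAT against eWAT in WT, it was 1.80 with normexp, 1.37 after quantile normalization, 0.99 if unscaled, 1.77 with the percentile of detected probes and 1.48 with loess. Without scaling 20 members were 2-fold higher and 4 lower. In ASK1-deficient mice it was 1.47 with normexp, 1.23 after quantile normalization, 0.83 if unscaled, 1.52 with median centring, 1.53 with the series table and 1.35 with loess, and 5 members were 2-fold lower without scaling. The causes were not tested.

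Scaling also moved the split of all genes past the fold. In iBAT, 51.5% of the genes at least 1.5-fold apart between genotypes were higher in ASK1-deficient mice, and this share was 41.4% with normexp, 64.1% if unscaled, 70.6% with the percentile of detected probes, 35.2% with median centring and 33.8% with the series table. In eWAT it was 34.1%, and 21.2% without scaling. Between tissues in WT, 55.1% were higher in iBAT, and 11.4% without scaling. In ASK1-deficient mice these shares were 49.4% and 10.72%. The median of all genes moved by 0.10 in iBAT and -0.13 in WT tissues with the percentile over detected probes, by -0.11 and -0.15 in WT tissues with quantile and loess normalization, and by 0.21 and 0.22 between tissues with no filter on dim probes. The genotype term of the limma fit called 19 genes with normexp, 138 with median centring and 128 with the series table, beside 0 in the main setting. No paired analysis was possible because each condition has 1 array, so no replicate number can serve as a block, although the limma fit does compare the tissues with genotype as a term. Leaving out an array was not run, since 3 arrays leave the limma fit no residual, nor was a block for the slide, since 1 slide holds all 4 arrays. With 1 pool for each condition, no setting covers the spread between mice.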
